A study of Capra hircus with 20 samples.

Results

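The 10 genes described here encode the protein scaffold of perineuronal nets and the calcium-binding protein of the neurons that most often carry such nets. They were chosen by symbol and comprise the lecticans ACAN, BCAN, NCAN and VCAN, the link proteins HAPLN1, HAPLN2 and HAPLN4, the tenascins TNR and TNC, and PVALB. All 10 are among the 21071 genes with values, and all 10 are among the 16771 that were tested, those that reached 0.1 FPKM in 5 or more libraries. FPKM counts fragments scaled to the length of the exons and to the mapped reads of the library, so levels of different genes can be set side by side per length. Each of the 20 libraries was made from the hypothalamus of a separate female Jining grey goat (Capra hircus), as strand-specific RNA sequencing after removal of rRNA. The goats received no treatment and belonged to 4 stages with 5 goats each, D1 (1 day), M2 (60 days), M4 (120 days) and M6 (180 days), chosen by the study to follow postnatal sexual maturation. The whole hypothalamus holds many nuclei and cell types, and a change in bulk RNA cannot separate fewer cells of a type from less RNA per cell.

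Perineuronal nets are condensed extracellular matrix around the soma and proximal dendrites of certain neurons, best known from fast-spiking interneurons that contain parvalbumin. Hyaluronan chains form the backbone, lecticans (chondroitin sulfate proteoglycans) bind to it, link proteins hold that bond, and tenascins join lecticans to each other. Nets mature after birth and are known for limiting plasticity, and in the hypothalamus they surround neurons around the median eminence. Related complexes of VCAN, BCAN, HAPLN2 and TNR sit at the nodes of Ranvier of myelinated axons.

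Tissue markers varied widely between libraries. The summed FPKM of 8 hypothalamic markers (OXT, AVP, PMCH, HCRT, POMC, NR5A1, SIM1, OTP) ran from 1.05 in M4 replicate 3 to 907 in M6 replicate 5, with a median of 9.17 and 13 of 20 libraries under 15, and with NR5A1 listed at 0 in 14 libraries and OXT and HCRT each in 6. How much hypothalamic tissue the libraries with low sums hold was not tested, so every value below is that of a library labelled as hypothalamus. Cortical and hippocampal markers reached 134 in M4 replicate 1 and at most 9.01 elsewhere, thalamic markers reached 453 in M4 replicate 2, and striatal markers reached 759 in D1 replicate 4, 357 in M6 replicate 2 and 170 in M2 replicate 4. Between D1 and the 15 later libraries, none of 12 marker lists passed an exact permutation test of 15504 assignments (two-sided, smallest Benjamini-Hochberg adjusted p = 0.611), with the smallest unadjusted p at 0.0512 for the meningeal list (log2 difference -0.97). This does not show that cell composition was alike. The oligodendrocyte sum was 4957 to 5740 FPKM in 4 D1 libraries and 388 in D1 replicate 4, and without that library 14 of 15 later libraries lay below all of D1 (log2 difference -1.65, exact permutation p = 0.0323, adjusted p = 0.129). Leaving it out was decided after the values were seen. In the same test the progenitor and meningeal lists had smaller exact permutation p, 0.0170 and 0.0209 (adjusted p = 0.125 for both). The libraries D1 replicate 4, M4 replicate 1 and M4 replicate 2 held the highest level of the striatal, cortical and thalamic list in turn and were set apart. The results that rest on them are given with and without them. The reads behind an FPKM value were not recovered, so the counting error of a value is unknown.

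By mean FPKM over the 20 libraries the genes fell into an upper group of 6 and a lower group of 4. HAPLN2 (34.4), BCAN (33.9), PVALB (32.5), TNR (22.3), VCAN (22.1) and NCAN (20.8) formed the upper group, and HAPLN4 (6.87), TNC (4.97), HAPLN1 (3.80) and ACAN (0.835) the lower one. Neighbours in this order overlapped widely within the upper group. HAPLN2 was above BCAN in 8 of 20 libraries, PVALB above TNR in 7 and TNR above VCAN in 12. NCAN was above HAPLN4 in 20 of 20 libraries, and ACAN was the lowest of the 10 genes in 17 of 20. The mean of ACAN, the lectican most used as a marker of nets, was above that of only 16.4% of the genes tested.

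**Figure D1:**
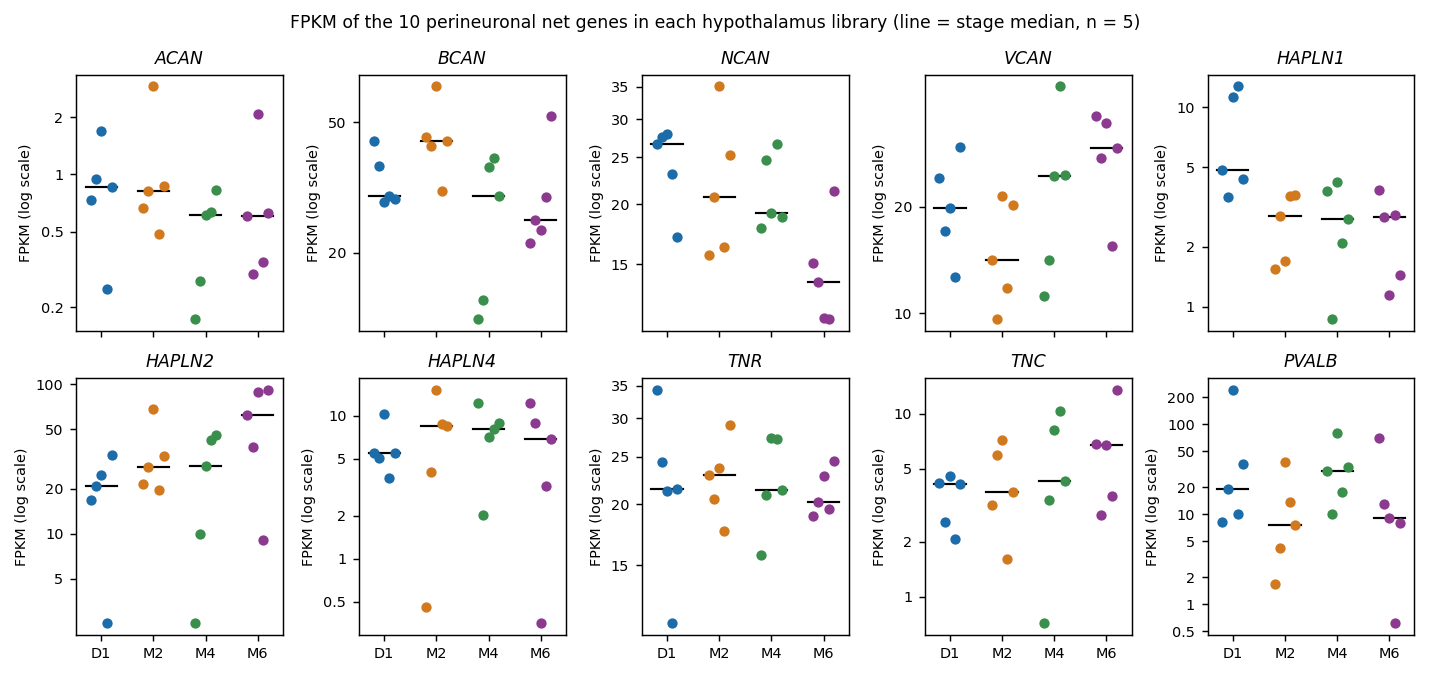
FPKM on a log scale for each of the 10 genes, with 1 point per library, the 5 libraries of a stage side by side in replicate order and a line at the stage median. TNR stayed between 11.4 and 34.3 FPKM, PVALB ran from 0.616 to 241, and HAPLN1 was highest in 2 of the D1 libraries.

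The spread between libraries of a stage set the genes apart more clearly than the stages did. The SD of log2(FPKM + 0.1) within stages was 0.36 for NCAN and TNR, 0.51 for BCAN and 0.57 for VCAN, with a median of 0.57 over all genes tested. It was 1.38 for HAPLN2, 1.45 for HAPLN4 and 1.84 for PVALB, and only 1.38% of the genes tested varied more than PVALB. Differences between stages held 45.05% of the variance of HAPLN1 and 44.1% of that of NCAN, against a median of 18.2% over all genes tested, and 1.25% of that of TNR.

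No gene of the 10 was called in any comparison of the stages. Values were compared with limma on log2(FPKM + 0.1), and a call needed a Benjamini-Hochberg adjusted p under 0.05 over all genes tested and a log2 difference of 1 or more in either direction. Calls were rare across the transcriptome too, with 0% of the genes tested for M2 against D1 and for each pair among M2, M4 and M6, 0.0537% for M4 against D1, 0.00596% for M6 against D1 and 0.0596% for the later stages (the mean of M2, M4 and M6) against D1. All of these calls were lower after D1. Against D1, an unadjusted p under 0.05 was reached by 1 of the 10 genes for M2 (15.6% of all genes tested), 1 for M4 (8.71%), 2 for M6 (7.41%) and 1 for the later stages (11.7%). Among the later stages it was reached by 1 of the 10 between M2 and M4 (8.68%), 2 between M2 and M6 (6.14%) and 1 between M4 and M6 (6.87%). With 10 genes, counts of 1 or 2 lie near these shares. The moderated F test over the 4 stages called 0 of the 10 genes (0.00596% of all genes tested), and 2 of them, HAPLN1 and NCAN, were under an unadjusted p of 0.05 (10.4%).

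The groups of 5 libraries overlapped for all 10 genes in all 6 pairwise comparisons. Among all genes tested the groups did not overlap for 3.82% between D1 and M2, 1.93% between D1 and M4, 2.84% between D1 and M6, 1.09% between M2 and M4, 0.757% between M2 and M6 and 0.775% between M4 and M6. For the 15 later libraries against D1 the share was 0.143%, and again 0 of the 10 genes.

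**Figure D2:**
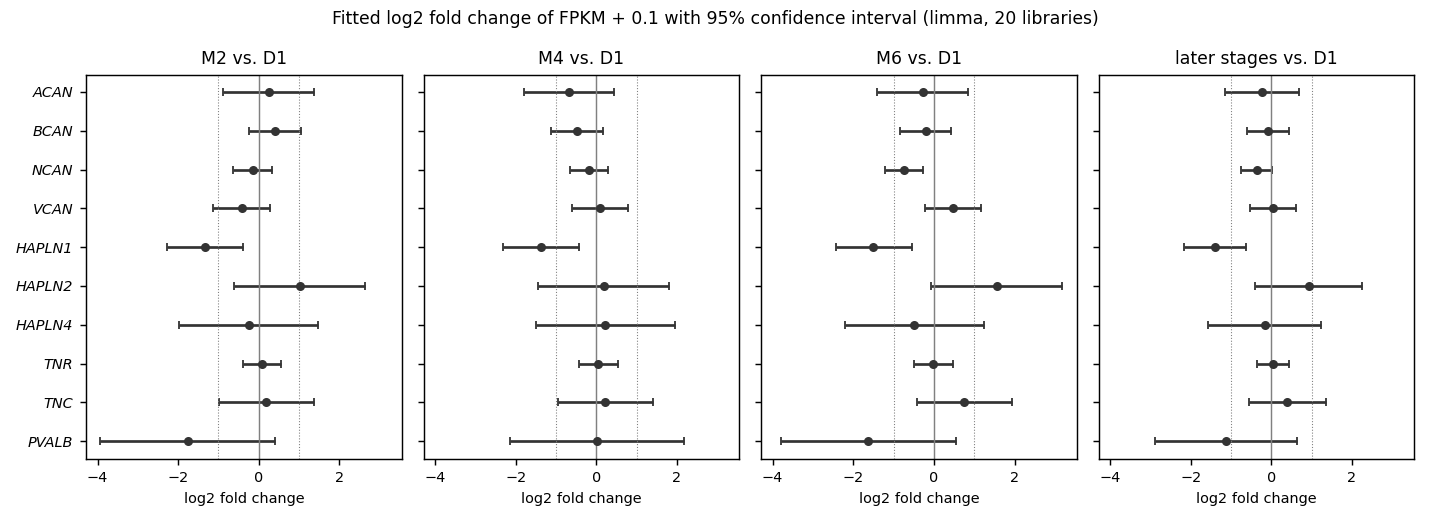
Fitted log2 fold change of FPKM + 0.1 against D1 for each gene, with the 95% confidence interval of the limma fit before adjustment and dotted lines at -1 and 1. The interval of HAPLN1 lay below 0 in all 4 comparisons, that of NCAN in M6 vs. D1, and the intervals of HAPLN2, HAPLN4 and PVALB were the widest.

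Among the lecticans, ACAN (aggrecan, chromosome 21 from 19677141 to 19744901 of the goat assembly ARS1.2) was at 0.736, 0.942, 1.69, 0.249 and 0.857 FPKM in the 5 D1 libraries and at 0.668, 0.820, 2.91, 0.486 and 0.871 in those of M2. It was at 0.173, 0.273, 0.612, 0.637 and 0.832 at M4 and at 0.606, 0.301, 2.07, 0.347 and 0.627 at M6. One library each of M2 and M6, both replicate 3, stood above the rest of its stage, and D1 replicate 4 and M4 replicates 1 and 2 were at the bottom. Both of the high libraries are among the 3 of lowest mapping rate, whose part was not tested. In later stages vs. D1 the log2 fold change was -0.24 (95% interval -1.16 to 0.68).

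BCAN (brevican, chromosome 3 from 105923801 to 105941498), a lectican found mostly in the brain and made largely by glia, was at 43.75, 36.9, 28.6, 29.8 and 29.2 FPKM at D1 and at 45.2, 42.2, 64.3, 30.85 and 43.9 at M2. It was at 12.55, 14.4, 36.5, 38.8 and 29.8 at M4 and at 21.4, 25.3, 23.5, 29.6 and 52.0 at M6. M2 held the highest median, 43.9, while M4 replicates 1 and 2 were the lowest of all 20 libraries. M4 vs. M2 gave a log2 fold change of -0.89 (SE 0.31, unadjusted p = 0.00909, limma adjusted p = 0.508). Without D1 replicate 4 and M4 replicates 1 and 2 it was -0.34.

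NCAN (neurocan, chromosome 7 from 104698762 to 104733499), a lectican of nervous tissue that is abundant in the juvenile brain, was at 26.7, 27.5, 28.0, 23.1 and 17.1 FPKM at D1 and at 15.7, 20.7, 35.1, 16.3 and 25.3 at M2. It was at 17.9, 24.7, 19.2, 26.6 and 18.8 at M4 and at 15.1, 13.8, 11.6, 11.5 and 21.3 at M6. In M6, 4 of 5 libraries lay below the lowest D1 library, and the same number below the lowest library of M2 and of M4. The mean was 24.5 ± 4.55 (SD, n = 5) in D1 and 14.7 ± 4.00 in M6 libraries. M6 vs. D1 gave a log2 fold change of -0.75 (SE 0.23, 95% interval -1.23 to -0.27, unadjusted p = 0.00365), and the limma adjusted p was 0.446. Against M2 it was -0.59 (limma adjusted p = 0.746) and against M4 -0.56 (limma adjusted p = 0.700). These comparisons share the M6 libraries. Neuron markers were also lower at M6, with a median log2 fold change of -1.18 over the 7 genes in M6 vs. D1 (3 at an unadjusted p under 0.05, 0 called) and -0.96 in M6 vs. M4 (2 and 0), and sums of 80.1 to 907 FPKM at M6 and 838 to 1471 at D1. Their part in the NCAN values was not tested. Without D1 replicate 4 and M4 replicates 1 and 2 the value for M6 vs. D1 was -0.76.

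VCAN (versican, chromosome 7 from 27133454 to 27253501), the lectican with the widest distribution outside the brain, was at 24.1, 17.1, 19.8, 12.6 and 29.5 FPKM at D1 and at 14.2, 9.59, 21.5, 11.8 and 20.2 at M2. It was at 11.2, 14.2, 24.5, 43.95 and 24.55 at M4 and at 36.1, 27.6, 34.5, 15.5 and 29.3 at M6. In M6, 4 of 5 libraries lay above the highest library of M2. M6 vs. M2 gave a log2 fold change of 0.89 (SE 0.34, unadjusted p = 0.0151, limma adjusted p = 0.746).

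Within each library the 4 lecticans divided their summed FPKM unevenly, and a share does not depend on the scaling of the library. BCAN held 43.0% ± 9.51 (SD, n = 20), VCAN 28.6% ± 10.2, NCAN 27.4% ± 7.84 and ACAN 1.02% ± 0.677. The BCAN share was 48.6% to 59.7% at M2, above all libraries of D1 (36.7% to 45.9%) and M4 (26.9% to 45.2%), while M6 ran from 29.3% to 51.9%. The NCAN share was 16.2% to 20.6% at M6, below all D1 libraries (22.3% to 35.8%) and all M4 libraries (23.8% to 46.1%), while M2 reached down to 20.75%. The ratio of VCAN to NCAN, chosen after the values were seen, was 0.464 to 0.902 at M2 and 1.34 to 2.97 at M6, with D1 at 0.547 to 1.73 and M4 at 0.573 to 1.65. The shares and the ratio are descriptions and were not tested. How often stages separate in shares or ratios of other genes was not counted. By FPKM each of the 4 lecticans overlapped between all pairs of stages.

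**Figure D3:**
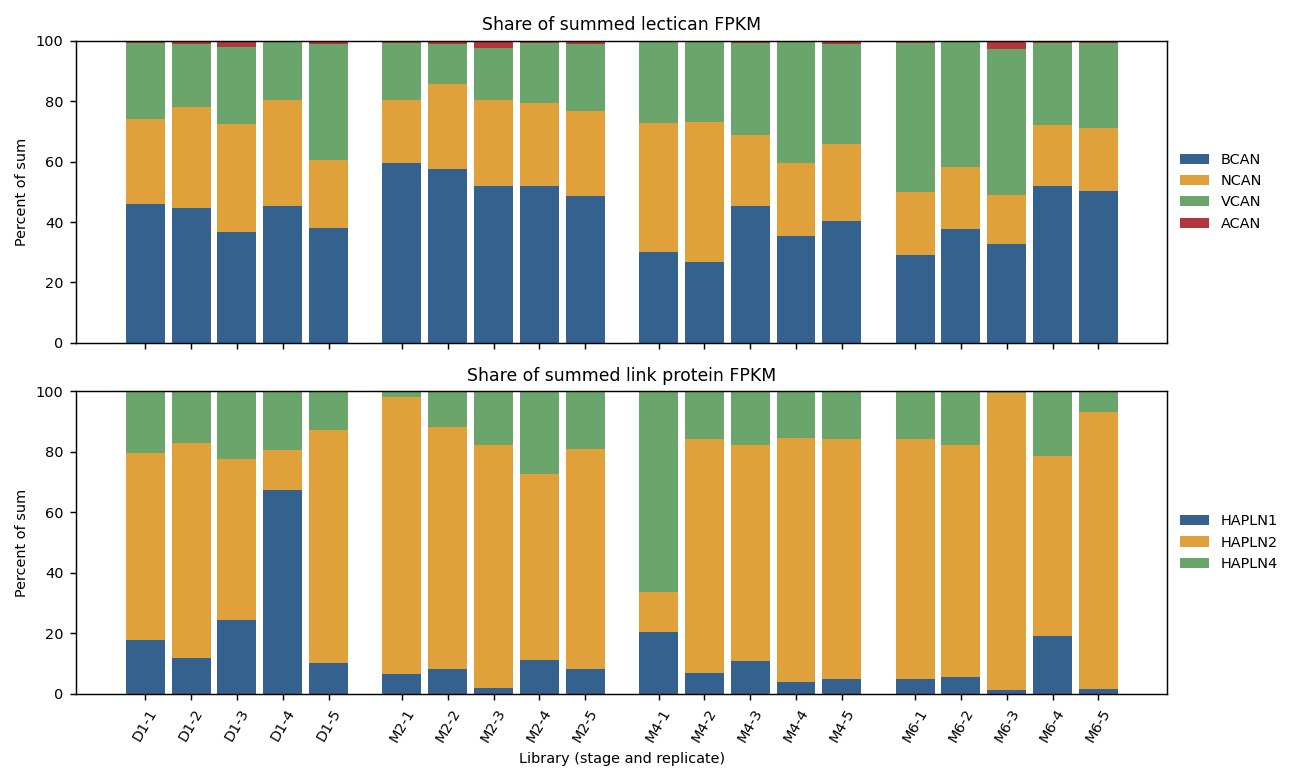
Share of each gene in the summed FPKM of the 4 lecticans (top) and of the 3 link proteins (bottom), as stacked bars that add to 100% for each of the 20 libraries. BCAN took 48.6% to 59.7% in the M2 libraries, and HAPLN2 took the largest part of the link proteins except in D1 replicate 4, where HAPLN1 held 67.3%, and M4 replicate 1, where HAPLN4 held 66.2%.

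Each link protein gene of this set lies next to a lectican gene with 0 annotated genes between them. HAPLN2 is 13525 bp from BCAN, HAPLN4 is 3617 bp from NCAN and HAPLN1 is 60330 bp from VCAN. Neighbours did not share a pattern past the adjusted threshold over the 20 libraries (permutation tests with 100000 permutations, adjusted over 45 pairs). Pearson's r of log2(FPKM + 0.1) was 0.47 for BCAN and HAPLN2 (rho 0.23, adjusted p of r = 0.118), 0.42 for NCAN and HAPLN4 (rho 0.22, adjusted p = 0.180) and -0.17 for VCAN and HAPLN1 (rho -0.14, adjusted p = 0.671).

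HAPLN1 (chromosome 7 from 26994304 to 27073123), the link protein that stabilises lecticans on hyaluronan in many tissues, was at 4.87, 3.54, 11.25, 12.8 and 4.37 FPKM in the D1 libraries. It was at 1.54, 2.85, 1.70, 3.58 and 3.64 at M2, at 3.80, 0.863, 4.23, 2.10 and 2.75 at M4 and at 3.86, 2.82, 1.15, 2.87 and 1.44 at M6. Of the 15 later libraries, 10 lay below the lowest D1 library and 0 above the highest, and D1 replicates 3 and 4 were the 2 highest of all. HAPLN1 averaged 7.36 ± 4.31 FPKM (SD, n = 5) in the D1 libraries, and 2.66 ± 1.00, 2.75 ± 1.35 and 2.43 ± 1.12 in those of M2, M4 and M6.

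The fitted difference of HAPLN1 had the smallest p among the 10 genes. The log2 fold change in later stages vs. D1 was -1.40 (SE 0.37, 95% interval -2.17 to -0.63, unadjusted p = 0.00113), and the limma adjusted p was 0.142. Taken singly against the same D1 libraries, M2 gave -1.33 (limma adjusted p = 0.200), M4 -1.37 (0.369) and M6 -1.50 (0.446). Between the later stages the differences ran from -0.17 to -0.05. Without D1 replicate 4 and M4 replicates 1 and 2 the value for later stages vs. D1 was -1.07 (limma adjusted p = 0.248). Down-weighting of noisy libraries in limma gave -1.10 with an adjusted p of 0.0388, and the mapping rate of each library as a covariate gave -0.94 with an adjusted p of 0.9993. D1 replicate 4, the library with the most HAPLN1, also had the highest striatal sum (759 FPKM) and a low oligodendrocyte sum (388 FPKM), and their part in the result was not tested. Without it the value was -1.15 (limma adjusted p = 0.301), and without D1 replicate 3, whose oligodendrocyte sum was 5712 FPKM, it was -1.20 (adjusted p = 0.534).

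HAPLN2 (chromosome 3 from 105904907 to 105910275), a brain link protein of the nodes of Ranvier, was at 16.8, 21.0, 24.6, 2.52 and 33.8 FPKM at D1 and at 21.4, 27.8, 68.25, 19.6 and 32.9 at M2. It was at 2.52, 9.97, 28.3, 42.2 and 45.5 at M4 and at 61.95, 38.0, 89.1, 8.995 and 91.7 at M6. In M6, 4 of 5 libraries were above the highest D1 library, and M6 replicate 4 was below 4 of the 5 D1 libraries. M6 vs. D1 gave a log2 fold change of 1.56 (SE 0.78, 95% interval -0.06 to 3.19, limma adjusted p = 0.691), which was 0.93 without D1 replicate 4 and 2.14 without M6 replicate 4. In later stages vs. D1 it was 0.92 (adjusted p = 0.587), 0.67 without D1 replicate 4 and M4 replicates 1 and 2, and 0.29 without D1 replicate 4 alone. The same comparison gave 0.17 with the mapping rate as a covariate.

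HAPLN4 (chromosome 7 from 104737117 to 104743831), a brain link protein that binds brevican, was at 5.51, 5.05, 10.4, 3.69 and 5.53 FPKM at D1 and at 0.456, 4.06, 15.2, 8.78 and 8.54 at M2. It was at 12.4, 2.03, 7.05, 8.04 and 8.90 at M4 and at 12.4, 8.87, 0.353, 3.24 and 6.91 at M6. The 2 lowest libraries, M6 replicate 3 and M2 replicate 1, also had the lowest sums of the neuron markers, 80.1 and 225 FPKM. Together with M2 replicate 3, the highest for HAPLN4, they were the 3 libraries of lowest mapping rate. Later stages vs. D1 gave a log2 fold change of -0.17 (95% interval -1.58 to 1.23, limma adjusted p = 0.940), and with the mapping rate as a covariate it was 1.11. Without the 3 libraries of lowest mapping rate it was 0.26, and M6 vs. D1 went from -0.49 to 0.31. The part of mapping rate and of neuron content was not tested.

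The 2 tenascins differed in how far they varied. TNR (tenascin-R, chromosome 16 from 55057169 to 55540922), which joins lecticans in nets and at nodes, was at 34.3, 24.4, 21.3, 11.4 and 21.4 FPKM at D1 and at 22.9, 20.5, 23.7, 17.6 and 29.1 at M2. It was at 15.7, 20.9, 27.3, 27.2 and 21.4 at M4 and at 18.9, 20.2, 22.8, 19.5 and 24.5 at M6. The stage means lay between 21.2 and 22.75, and its highest library was 3.00 times its lowest. Later stages vs. D1 gave a log2 fold change of 0.04 (95% interval -0.35 to 0.43, limma adjusted p = 0.952), an interval that stays inside a 1.5-fold difference in either direction.

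TNC (tenascin-C, chromosome 8 from 103912121 to 104013697), a tenascin of astrocytes and of the developing brain, was at 4.17, 2.57, 4.60, 2.08 and 4.12 FPKM at D1 and at 3.17, 5.96, 7.19, 1.61 and 3.72 at M2. It was at 0.719, 3.36, 8.10, 10.4 and 4.31 at M4 and at 6.79, 2.80, 6.74, 3.55 and 13.5 at M6. Of the 15 later libraries, 7 were above the highest D1 library and 2 below the lowest. M6 vs. D1 gave a log2 fold change of 0.76 (SE 0.56, limma adjusted p = 0.762). The ratio of TNR to TNC within a library ran from 1.82 in M6 replicate 5 to 21.9 in M4 replicate 1, with a median of 5.50 among D1, 7.22 among M2, 4.96 among M4 and 3.39 among M6 libraries.

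PVALB (parvalbumin, chromosome 5 from 73869122 to 73888542), the calcium buffer of fast-spiking neurons, was at 8.17, 19.0, 241, 9.93 and 36.15 FPKM at D1 and at 1.66, 4.16, 38.2, 13.5 and 7.62 at M2. It was at 30.3, 10.04, 78.9, 17.7 and 33.7 at M4 and at 70.0, 13.0, 9.15, 0.616 and 8.05 at M6. A single library, D1 replicate 3, held 37.0% of the FPKM summed over all 20, and the median over all libraries was 13.3. Later stages vs. D1 gave a log2 fold change of -1.12 (SE 0.85, limma adjusted p = 0.621), and without D1 replicate 3 it was -0.33. In M4 vs. M2 it was 1.79 (95% interval -0.38 to 3.95, limma adjusted p = 0.626).

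Relations between the genes over the 20 libraries were all positive where they passed the adjusted threshold. Of 45 pairs, 4 passed by Pearson's r, 5 by Spearman's rho and 12 by r of the deviations from stage means, permuted within stages (100000 permutations, Benjamini-Hochberg adjusted p under 0.05 over the 45 pairs). VCAN and HAPLN2 passed by all 3 measures, with r of 0.70, rho of 0.78 and 0.84 within stages (adjusted p = 0.0117, 0.00563 and 0.00113). Without the 2 libraries farthest from the median of VCAN, r was 0.81. HAPLN2 and TNC gave 0.78, 0.75 and 0.78 (adjusted p = 0.0027, 0.00563 and 0.0039), and 0.64 without the 2 farthest libraries. VCAN and TNC gave 0.67, 0.66 and 0.68, and 0.77 without the 2 farthest. ACAN and HAPLN2 gave 0.69, 0.52 and 0.80, and the rho did not pass (adjusted p = 0.112). HAPLN4 and PVALB, both genes of neurons, gave an r of 0.57, a rho of 0.67 and 0.56 within stages, of which only the rho passed (adjusted p = 0.0215). Leaving out D1 replicate 4 and M4 replicates 1 and 2 lowered r to 0.61 for VCAN and HAPLN2, 0.64 for HAPLN2 and TNC, 0.57 for VCAN and TNC and 0.44 for ACAN and HAPLN2. The relation of HAPLN2 and TNR within stages, 0.66, came to 0.16 without these libraries. Within stages ACAN and VCAN went from 0.64 to 0.43, VCAN and TNR from 0.63 to 0.41 and TNR and TNC from 0.60 to 0.43. BCAN and TNR (0.59 to 0.65) and HAPLN1 and HAPLN4 (0.53 to 0.55) did not fall. How many pairs among all genes would pass was not counted, so the counts are not a result about net genes. The part of tissue content was not tested.

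The genes also moved with summed markers of cell types. Of 120 relations of the 10 genes to 12 lists, 17 passed by r (16 positive), 14 by rho (10 positive) and 26 within stages (22 positive), each adjusted over the 120. None of the lists holds a gene of the 10, and both values of a relation come from the same library. How many relations of all genes to these lists would pass was not counted.

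HAPLN2 had its highest r with the oligodendrocyte list (MBP, MOG, MAG, MOBP, CNP, CLDN11, OPALIN, UGT8, ERMN), the myelin genes. Over all libraries r was 0.79 (permutation test, adjusted p = 0.0048) and rho 0.51 (adjusted p = 0.116). Within stages r was 0.95 (adjusted p = 0.003), a value that 0.447% of the genes tested exceeded. Without D1 replicate 4 and M4 replicates 1 and 2, r was 0.49 over all libraries and 0.87 within stages. Over all 20 libraries the relation was not particular to myelin genes. With the astrocyte list HAPLN2 had an r of 0.74 (adjusted p = 0.0048) and a rho of 0.69 that passed (adjusted p = 0.0206). With the oligodendrocyte progenitor list r was 0.72 (adjusted p = 0.0084) and 0.89 within stages, exceeded by 0.107% of the genes tested. Without D1 replicate 4 and M4 replicates 1 and 2, r was 0.46 with the astrocyte list and 0.26 with the progenitor list. Within stages these became 0.52 for astrocytes (0.79 with all libraries) and 0.70 for progenitors. The 4 libraries with the lowest oligodendrocyte sums, from 193 to 441 FPKM, were also the 4 lowest for HAPLN2.

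Set against the same sum, HAPLN2 was low in the D1 libraries. HAPLN2 per 1000 FPKM of the oligodendrocyte markers was 3.40, 3.71, 4.30, 6.49 and 5.88 at D1, and it was 11.2 to 25.8 at M2, 6.31 to 22.6 at M4 and 15.8 to 30.0 at M6. All 5 libraries of M2 and of M6 and 4 of 5 of M4 were above every D1 library. Over the same sum, all libraries of a stage were above every D1 library for 1 of the 10 genes at M2 and at M6, HAPLN2 in both, and for 0 at M4. Among all genes tested the share was 0.388% for M2, 0.346% for M4 and 0.411% for M6. These low counts turn on D1 replicate 4, whose oligodendrocyte sum was 388 FPKM. Without that library the shares were 51.0%, 25.2% and 19.4% of all genes tested, and 6 of the 10 genes at M2 (ACAN, BCAN, NCAN, HAPLN2, TNR, TNC) and 3 at M4 and at M6 (VCAN, HAPLN2, TNC) were above every D1 library, so the pattern is not particular to HAPLN2. HAPLN2 over each of the 9 markers taken singly was above every D1 library in all M2 libraries for 7 markers, in all M4 libraries for 5 and in all M6 libraries for 9. The ratio was chosen after the values were seen and was not tested.

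**Figure D4:**
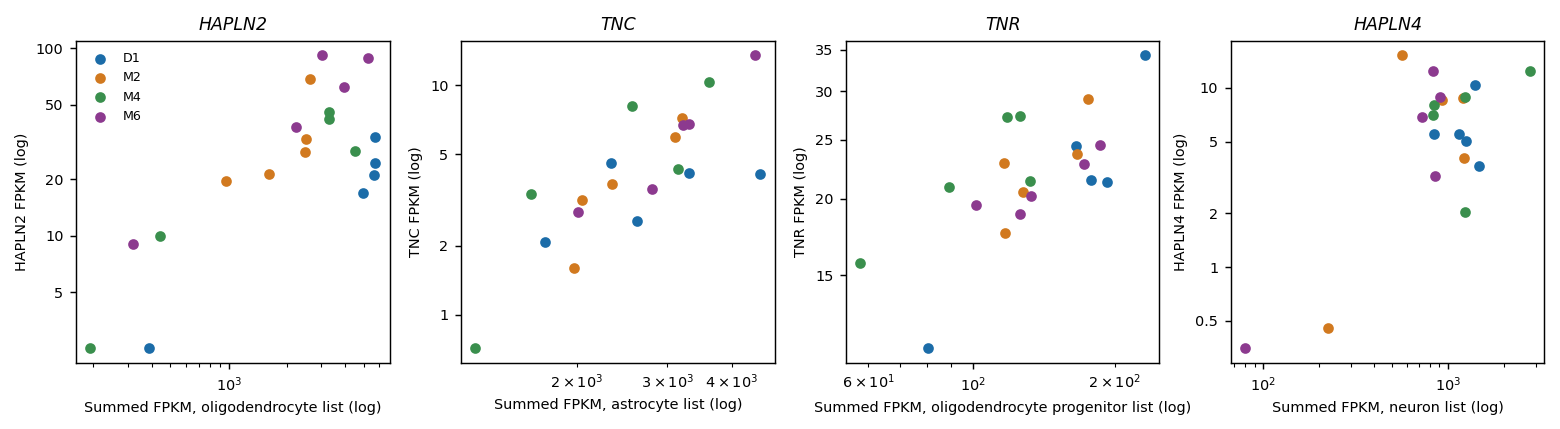
FPKM of HAPLN2, TNC, TNR and HAPLN4 against the summed FPKM of a marker list, both on log scales, with 1 point per library coloured by stage. HAPLN2 per oligodendrocyte sum is lower in the D1 libraries than in 14 of the 15 later ones, M4 replicate 3 being the exception, and 2 libraries low in neuron markers carry the relation of HAPLN4.

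VCAN and ACAN moved with oligodendrocyte markers as well. Within stages r was 0.80 for VCAN (adjusted p = 0.00622) and 0.75 for ACAN (adjusted p = 0.003), and over all libraries 0.65 and 0.73. Without D1 replicate 4 and M4 replicates 1 and 2 these became 0.60 and 0.56 within stages, and 0.49 and 0.50 over all libraries. Other glial lists gave like values. VCAN had an r of 0.66 and a rho of 0.74 with the astrocyte list (adjusted p = 0.0186 and 0.0123), beside a rho of 0.63 with oligodendrocytes. ACAN had an r of 0.74 and a rho of 0.74 with the progenitor list (adjusted p = 0.0048 and 0.0123), beside a rho of 0.72 with oligodendrocytes. Without the 3 libraries set apart, r was 0.52 for VCAN with astrocytes and 0.54 for ACAN with progenitors, and 0.40 and 0.56 within stages.

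TNR had its highest r with the list of oligodendrocyte progenitors (PDGFRA, OLIG1, OLIG2, SOX10, GPR17, LHFPL3). It was 0.71 over all libraries (permutation test, adjusted p = 0.0108), with a rho of 0.62, and 0.87 within stages (adjusted p = 0.003), exceeded by 0.268% of the genes tested. Without the 3 libraries set apart it was 0.55 and 0.66. Over all 20 libraries other lists gave like values, with an r of 0.65 to oligodendrocytes (adjusted p = 0.0186). Without these 3 libraries the r to oligodendrocytes was 0.42, and within stages it went from 0.71 to 0.28. By rho the microglia list was higher, at 0.68 (adjusted p = 0.0223).

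TNC followed the astrocyte list (GFAP, AQP4, ALDH1L1, SLC1A2, SLC1A3, GJA1, ALDOC), with r of 0.79 over all libraries (adjusted p = 0.0048), rho of 0.75 and 0.82 within stages (adjusted p = 0.0024), exceeded by 0.274% of the genes tested. It was 0.80 without the 2 farthest libraries and 0.68 without the 3 libraries set apart. With the oligodendrocyte list TNC had an r of 0.64 (adjusted p = 0.0230), which was 0.35 without these 3 libraries. Within stages it went from 0.73 to 0.53. BCAN had its highest r with the microglia list, 0.76 over all libraries (adjusted p = 0.0048), with a rho of 0.74, and 0.74 within stages (adjusted p = 0.0175). For BCAN these became 0.51 and 0.52 without the 3 libraries set apart. BCAN also had an r of 0.70 with the endothelium list (adjusted p = 0.0108) and 0.61 with the progenitor list (adjusted p = 0.0286). Without those 3 libraries these were 0.52 and 0.25. Within stages they went from 0.64 to 0.57 and from 0.61 to 0.48.

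HAPLN4 and HAPLN1 were the only 2 of the 10 genes with a positive r of at least 0.5 to the neuron list (SNAP25, SYT1, RBFOX3, STMN2, NEFL, NEFM, SYP). For HAPLN4 r was 0.72 (permutation test, adjusted p = 0.0242), but rho was 0.16, and r was -0.10 without M2 replicate 1 and M6 replicate 3, so the relation rests on these libraries. For HAPLN1 r was 0.53 over all libraries (adjusted p = 0.0773), with a rho of 0.45, and 0.53 within stages (adjusted p = 0.0447). That value within stages was exceeded by 12.7% of the genes tested, so it does not set HAPLN1 apart. HAPLN1 had a negative relation to the choroid plexus list (TTR, KL, CLIC6, FOLR1, AQP1), with r of -0.62 (adjusted p = 0.0242), rho of -0.68 (adjusted p = 0.0206) and -0.57 within stages (adjusted p = 0.0483). NCAN had no relation past the adjusted threshold to any of the 12 lists by any of the 3 measures. The absence of a passing value does not show that NCAN is independent of these cells.

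**Figure D5:**
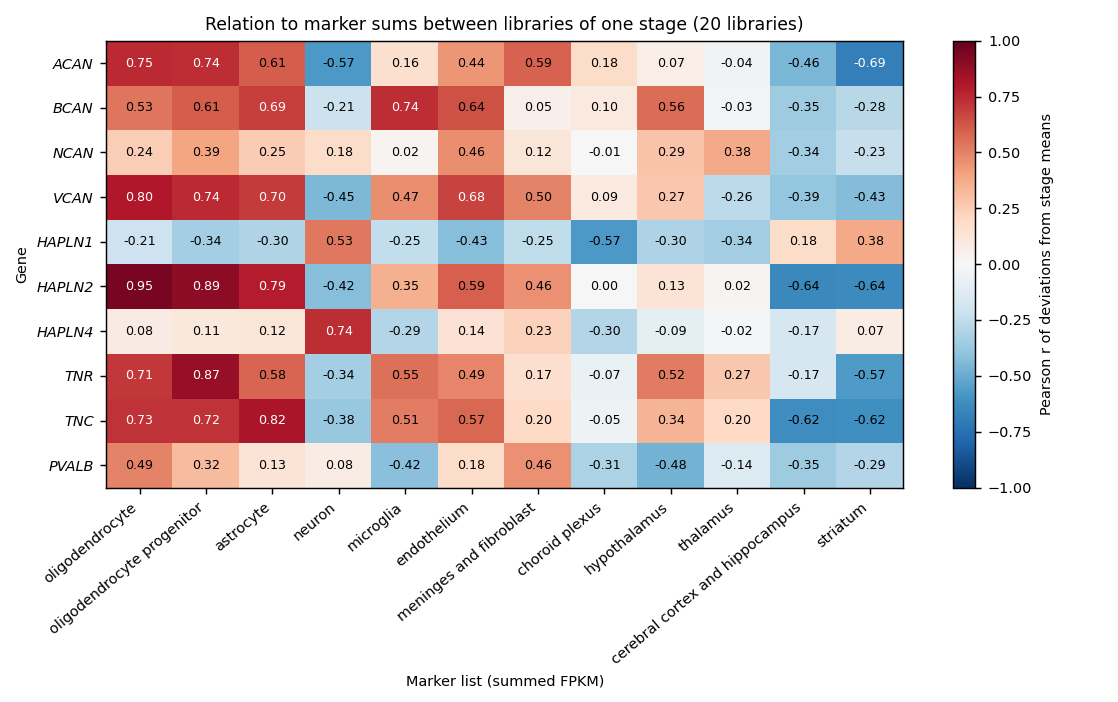
Pearson's r between the deviations of each gene (rows) and of each summed marker list (columns) from their stage means, on the log2 scale over 20 libraries, from -1 (blue) to 1 (red). HAPLN2 and the oligodendrocyte list gave the highest value, 0.95. The columns for cortex and striatum were negative for most genes, HAPLN2 and TNC among them, with ACAN lowest for striatum at -0.69. Without D1 replicate 4 and M4 replicates 1 and 2 (not drawn), cortex was 0.55 for TNR (from -0.17), 0.07 for BCAN and -0.03 for VCAN. Striatum was then -0.10 for TNR (from -0.57) and -0.57 for ACAN. HAPLN2 stayed negative, at -0.46 for cortex and -0.43 for striatum.

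The genes nearest in pattern were found by r over the 20 libraries among genes with a mean of at least 1 FPKM. For HAPLN2 they were PAQR6 (0.96), GPR62 (0.94) and CDC42EP2 (0.94), and for TNC they were TTLL4 (0.93), CASKIN2 (0.92) and BAG3 (0.91). For HAPLN4 they included KCNAB3 (0.84), a potassium channel subunit, and INA (0.84), a neuronal intermediate filament. For VCAN they were SNX9 (0.89), RUBCNL (0.86) and SFT2D2 (0.85), and for ACAN they were HSPG2 (0.88), which encodes the proteoglycan perlecan, RAB7B (0.85) and FAM234A (0.83). For BCAN they were KLHL1 (0.87), SYVN1 (0.85) and CECR1 (0.84), and for TNR they were KANK1 (0.84), SNX30 (0.84) and BEND7 (0.80). For NCAN they were SBK1 (0.82), LOC102168680 (0.78) and ANXA6 (0.77), for HAPLN1 they included PBK (0.80) and LOC102178027 (0.78), and for PVALB they were IGFBP2 (0.81), ELAVL3 (0.78) and TNFAIP1 (0.76). None of the 10 genes was among the 3 nearest of another.

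The enzymes and partners of nets were read from 5 lists, and 0 genes were called in any list in any comparison. Of 10 genes of hyaluronan synthesis and turnover 9 were tested, of 22 of chondroitin sulfate synthesis 20, of 13 proteases and inhibitors 12, of 15 net-associated proteins and receptors 14, and of 12 partners of PVALB in fast-spiking neurons 11. In later stages vs. D1 the median log2 fold change was -0.19 for hyaluronan genes, -0.04 for chondroitin sulfate synthesis, -0.01 for proteases and inhibitors, -0.08 for net-associated proteins and -0.10 for PVALB partners, beside -0.07 over all genes tested.

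In the chondroitin sulfate list, UST, which transfers sulfate to uronic acid of the chains, came nearest to a call. Its FPKM was 17.7 to 25.4 in D1 libraries and 7.74 to 18.5 in those of M2, which overlapped. M4 (6.70 to 16.5) and M6 (8.33 to 13.2) did not overlap D1, as for 1.93% and 2.84% of all genes tested. UST was named for its small F test p in the same values, so this adds no separate support. The log2 fold change in later stages vs. D1 was -0.87 (SE 0.21, unadjusted p = 0.000474, limma adjusted p = 0.0982). FAM20B, which phosphorylates the linker of the chains, was at 15.3 ± 6.29 FPKM (SD, n = 5) at M2 and 28.4 ± 11.4 at M4, with a log2 fold change of 0.94 in M4 vs. M2 (adjusted p = 0.495).

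HAPLN3, the link protein gene 1282 bp from ACAN, had the smallest F test p of the net-associated list. It was at 1.85, 0.746, 0.390, 1.60 and 0.919 FPKM at D1 and at 13.75, 2.41, 12.2, 3.34 and 3.98 at M2, with 0.407 to 1.93 at M4 and 0.737 to 5.18 at M6. All M2 libraries were above all libraries of D1 and of M4, and 2 of them, replicates 1 and 3, stood far above the other 3. Both are among the 3 libraries of lowest mapping rate, and their part in the difference was not tested. Among all genes tested, 3.82% did not overlap between D1 and M2 and 1.09% between M2 and M4. HAPLN3 was named from the same values, so the separation adds no separate support. M2 vs. D1 gave a log2 fold change of 2.41 (SE 0.57, unadjusted p = 0.000409, limma adjusted p = 0.132) and M4 vs. M2 gave -2.56 (adjusted p = 0.371). Its neighbour ACAN gave 0.24 in M2 vs. D1, and r between both genes was 0.08 (rho -0.04, permutation p = 0.736 and 0.871). CNTN1, an axonal adhesion molecule that binds TNR, was at 220 ± 69.7 FPKM (SD, n = 5) at D1 and 136 ± 24.6 at M6 (log2 fold change -0.63, adjusted p = 0.643).

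In the hyaluronan list, CD44, the hyaluronan receptor, averaged 6.85 ± 2.86 FPKM (SD, n = 5) in D1 and 6.92 ± 2.88 in M6 libraries, and 3.02 ± 1.42 and 3.65 ± 3.19 in those of M2 and M4 (F test adjusted p = 0.455). UGDH, which makes the UDP-glucuronic acid for the chains, was at 13.5 ± 3.12 at D1 and between 8.84 and 9.74 on average later, with a log2 fold change of -0.55 in later stages vs. D1 (SE 0.18, limma adjusted p = 0.242). ADAMTS1 and ADAMTS5, proteases that cut lecticans, had mean levels between 0.631 and 1.42 FPKM at all stages and F test adjusted p of 0.594 and 0.685. Among the PVALB partners, SYT2, the calcium sensor of fast release, was at 3.641 ± 1.499 FPKM (SD, n = 5) at M2 and 1.53 ± 0.934 at D1 (log2 fold change 1.36, limma adjusted p = 0.208).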

How the data were processed

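RNA from 20 goat hypothalami was sequenced by the authors, who aligned reads to the goat assembly ARS1.2 with HISAT2 2.0.5 and assembled transcripts with StringTie 1.3.3b. The deposited values are FPKM per gene calculated by the authors, with sums of 260199 to 377479 per library. Only 10.9% of low values lay within 0.05 of a whole multiple of a step (10% by chance), so the reads per gene were not recovered. Genes were matched by NCBI Gene ID to RefSeq symbols (20610 matched).

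Genes that reached 0.1 FPKM in 5 or more of 20 libraries were fitted as log2(FPKM + 0.1) with limma 3.58.1 in R 4.3.3 (trend, stage as the only factor, Benjamini-Hochberg adjustment). The design assumed FPKM, and read counts were not used here. Fold changes on this scale understate those of low genes. The fit was tested on simulated data with independent noise in each gene and library, which leaves out variation that genes share across libraries. Relations and permutation tests used Python 3.11.15 with numpy 2.4.6, pandas 2.3.3 and scipy 1.17.1, and figures matplotlib 3.10.9.

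The members and gene lists were chosen with earlier results of these data known. Named genes are the 10 members, the 2 genes of each list with the smallest F test p, and the 3 genes of highest r per member, of which 3 genes are not reported here. The alternatives, among them leaving out each library and the mapping rate from the study's supplement as a covariate, are given in the closing section. Leaving out D1 replicate 4 and M4 replicates 1 and 2 together, and D1 replicate 4 in the marker sums and ratios, was added after the data were seen. The labels do not say that replicate numbers pair libraries of different stages, and the main fit assumed no pairing. CEMIP2, CHPF2 and SCN1A were not analysed here.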

Additional observations from a re-analysis of the deposited data

Results flagged for a closer look

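In 52 groups of 5 libraries (40 of member levels and 12 of ratios within a library), 9 held a library whose gap to the nearest other, divided by the range of the group, was above Dixon's 95% critical value of 0.71. Chance flags about 1 in 20 groups of normally distributed values, but FPKM and ratios are skewed to the right, and the rate on this scale was not measured. All 9 libraries were at the high end, and on the log2 scale 1 of the 52 groups was above the critical value, HAPLN2 at D1 with D1 replicate 4 as the lowest library. In D1 replicate 3, PVALB was at 240.9 FPKM (next 36.15) and HAPLN4 at 10.36 (next 5.528). In M2 replicate 3, ACAN was at 2.911 FPKM (next 0.8706), HAPLN2 at 68.25 (next 32.88) and the ratio of HAPLN2 to HAPLN1 at 40.24 (next 13.94). That library also held the highest sums of endothelial, meningeal and choroid plexus markers, 165.2, 310.6 and 27.89 FPKM, and their part in these values was not tested. In M6, ACAN was at 2.068 FPKM in replicate 3 (next 0.6272), BCAN at 52.03 in replicate 5 (next 29.59) and PVALB at 70.04 in replicate 1 (next 13.04). In M4 replicate 1, the library with the highest cortical and the lowest astrocyte sum (134.2 and 1269 FPKM), the ratio of TNR to TNC was 21.87 (next 6.221).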

How the results depend on the processing

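Each comparison was repeated under up to 35 alternatives, and the number of the 10 genes called was 0 in every one except later stages vs. D1 with library quality weights, where it was 1 (HAPLN1, log2 fold change -1.10, limma adjusted p = 0.0388; range of its adjusted p over the alternatives 0.0388 to 0.9993, and range of its log2 fold change -1.61 without D1 replicate 2 to -0.94 with the mapping rate as a covariate). NCAN in M6 vs. D1 also had an adjusted p of 0.0455 under these weights, at a log2 fold change short of the cutoff. Of the 70 log2 fold changes of members, 34 kept their sign under all alternatives and 36 changed it in at least 1, the largest of the latter being 0.84 in size (HAPLN2, M4 vs. M2), and in none of these was an unadjusted p under 0.05 in either fit. PVALB in later stages vs. D1 went from -1.12 to -0.33 without D1 replicate 3. The number of genes called across the transcriptome depended on the setting more than that of the members did, with 10 in later stages vs. D1 and 0 to 223 under the alternatives, 9 and 0 to 65 in M4 vs. D1, 1 and 0 to 95 in M6 vs. D1, and 0 and 0 to 148 in M2 vs. D1, each highest with library quality weights. The cause was not tested. With the replicate number as a block the number of members called was 0 in every comparison. The labels do not say that a number pairs libraries. Deviations from stage means correlated with a median of -0.011 over 30 pairs of the same number and 0.0044 over 120 pairs of different numbers. Pairs of the same number ran from -0.25 to 0.43, with 7 above 0.1, and 3 libraries correlated best with one of their own number. These medians show no general pairing by number, but they cannot exclude a factor shared by some pairs. The p-values of the limma fits rest on the spread between libraries of a stage. With 1 library per goat, differences between goats, dissections and libraries cannot be told apart in that spread. The p-values of the relations come from permuting libraries. FPKM give no counting error, so the limit at low levels, as for ACAN, is unknown.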
